A study of Homo sapiens with 4 samples.

Results

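MYC, KLF6, EGR1 and PLK2 are 4 immediate early genes, chosen by name and read from gene start to gene end in tables that held 9667 genes in all. All 4 were found. FLASH-seq is a crosslinking and pull-down assay, in which ultraviolet light joins proteins to the RNA they touch, tagged protein is captured on streptavidin beads, and RNase I trims the RNA that came along before it is sequenced. The cells were RPE1, immortalised cells derived from the human retinal pigment epithelium, in the form RPE1 iCas9 p53/puro-dKO, so every library came from cells with inducible Cas9 and without p53 and the puromycin resistance gene. The negative control was CFAP20-KO cells, which lack CFAP20 and carry no tagged protein (2 libraries), and the other group was the same CFAP20-KO cells expressing FLASH-BIO-CFAP20, here called tagged-CFAP20 (2 libraries). The design asks whether CFAP20, a protein known from cilia, binds RNA. The sources used here do not give a treatment, the number of clones, the promoter of the tagged protein, or whether replicates were separate cultures. The limma p-values thus reflect how far the libraries of a group lay apart, and that scatter may be technical. Exact binomial p-values rest on reads pooled by group and reflect counting error only, not the scatter between libraries.

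Immediate early genes are switched on within minutes of a growth factor or stress signal, without the need for new protein synthesis. Most are short, and their messenger RNAs decay fast, helped in many cases by AU-rich elements in the 3′ UTR that recruit decay factors. MYC is a transcription factor that drives growth and ribosome production, EGR1 and KLF6 are zinc finger transcription factors that bind GC-rich DNA, and PLK2 is a polo-like kinase with roles in centriole duplication and stress responses.

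The values are coverage signal in 200-bp bins, in units whose normalization is not given in the sources used here. Each value is a whole multiple of the signal of 1 read in 1 bin, called a read overlap below. Depth was very unequal, with 9146 and 3908 overlaps on genes in CFAP20-KO and 165189 and 134891 with tagged CFAP20. Up to 3 reads can be missed where a gene is at 0, and 3 reads are worth a signal of 342 and 1142 in the controls but 53.0 and 57.5 with tagged CFAP20. Floors and counting intervals cover counting error only. Depth and the presence of tagged CFAP20 cannot be told apart in this design. The coding bins of CFAP20, read through the window of the gene MMP15, held 0 overlaps in both CFAP20-KO libraries and 36 and 38 with the tagged protein. At the depth of the controls, 0 overlaps does not by itself show that the RNA was absent. Of 12 markers of retinal pigment epithelium, 6 were in the tables and 4 had signal in both tagged-CFAP20 libraries, led by MITF and OTX2, while TTR was at 0; of the other types looked for, CD3E and ALB were at 0 and SNAP25 held 11 and 15 overlaps with the tagged protein. The 8 markers chosen for cultured epithelial and mesenchymal lines were not in the tables used here.

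The 4 genes are 3826 to 9280 bp long in the tables (hg38, GENCODE 44 models). PLK2 (ENSG00000145632) spans 58453983 to 58460261 of chromosome 5 on the minus strand and has 14 exons. EGR1 (ENSG00000120738) spans 138465490 to 138469315 of the same chromosome on the plus strand and has 2 exons. KLF6 (ENSG00000067082) spans 3775997 to 3785276 of chromosome 10 on the minus strand and has 4 exons. No annotated gene overlapped these 3. The nearest neighbour of PLK2 lay 31174 bp away and that of KLF6 275 bp away. The tables are not split by strand.

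The bins with most reads are shown for these 3 genes because they held the most tagged-CFAP20 read overlaps of each gene. Capitals mark coding bases and lower case marks intron of the GENCODE transcript used for each gene. The KLF6 bin is chr10:3781976-3782175 on the minus strand, inside exon 2. The EGR1 bin is chr5:138467390-138467589 on the plus strand, inside exon 2, and codes for part of the zinc finger domain. The PLK2 bin is chr5:58456361-58456560 on the minus strand, and it crosses the end of an exon, whose last 69 bases it holds, into the next intron. All of it lies on annotated exons once other PLK2 transcripts are counted.
KLF6: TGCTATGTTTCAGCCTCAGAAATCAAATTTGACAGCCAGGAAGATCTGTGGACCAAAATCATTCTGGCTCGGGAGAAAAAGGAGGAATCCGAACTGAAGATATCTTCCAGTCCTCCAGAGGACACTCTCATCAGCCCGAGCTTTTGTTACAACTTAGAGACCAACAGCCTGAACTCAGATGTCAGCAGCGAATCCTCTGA
EGR1: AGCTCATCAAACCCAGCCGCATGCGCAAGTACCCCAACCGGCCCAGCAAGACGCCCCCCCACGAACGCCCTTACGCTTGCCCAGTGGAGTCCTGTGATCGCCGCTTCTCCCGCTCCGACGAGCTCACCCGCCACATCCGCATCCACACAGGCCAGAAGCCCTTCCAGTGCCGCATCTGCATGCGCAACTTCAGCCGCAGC
PLK2: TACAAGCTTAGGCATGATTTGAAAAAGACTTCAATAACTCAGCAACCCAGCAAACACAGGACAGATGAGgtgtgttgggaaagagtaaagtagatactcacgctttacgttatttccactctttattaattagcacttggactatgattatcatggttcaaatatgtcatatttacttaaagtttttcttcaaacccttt

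The KLF6 bin held 11 and 14 overlaps with tagged CFAP20 and 0 in both CFAP20-KO libraries. That single bin carried 22.9% of all tagged-CFAP20 overlaps on KLF6, 10.8 times the mean bin of the gene. The EGR1 bin held 7 and 4 overlaps with the tagged protein and 0 without it, which was 27.5% of the gene's total and 5.5 times its mean bin. The PLK2 bin held 39 and 28 overlaps with the tagged protein and 2 over both CFAP20-KO libraries, yet this was only 6.42% of the gene's total and 2.06 times its mean bin. By share of the gene's overlaps the EGR1 bin stood highest, by multiples of the mean bin the KLF6 bin did, and the PLK2 bin was lowest by both. The bins were picked as the highest of each gene, so these values describe them and are not tested.

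The base composition of these bins differed from gene to gene. GC content was 46.5% in the KLF6 bin against 48.1% over the whole gene, and 34.5% in the PLK2 bin against 42.4%. In EGR1 the bin had 65.0% GC against 56.6% over the gene. The 13 EGR1 bins with any tagged-CFAP20 overlap had a median GC content of 62.0%, and the 7 bins without had 45.0%. In KLF6 the medians were 47.0% over 35 bins with and 45.5% over 12 bins without, and in PLK2 39.5% over 31 bins with and 73.5% in the 1 bin without. The PLK2 bin without reads is the one at the gene start, outside the GENCODE transcript used, and most EGR1 bins without reads lay in the 3′ UTR. GC content was thus not separated from position and gene feature. The part of GC content in where reads lay was not tested.

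MYC (ENSG00000136997) spans 127736069 to 127741434 of chromosome 8 on the plus strand, with 3 exons, and no sequence of it is shown. An antisense long noncoding RNA gene, CASC11, overlaps it, and in these unstranded values reads of the pair cannot be told apart. The end of MYC in the tables comes before the end of the GENCODE model, so the last stretch of its 3′ UTR falls in the bins past the end. Its highest bin, 4.6 kb from the start in exon 3, held 13 and 6 overlaps with the tagged protein and 2 in CFAP20-KO, or 14.3% of the tagged-CFAP20 total on the gene.

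PLK2 had by far the most signal of the 4 genes. Its summed signal was 1162 and 1938 in the controls, replicate 1 first, and 7236 and 6688 with tagged CFAP20. Both tagged-CFAP20 libraries lay well above both CFAP20-KO libraries. The tagged-CFAP20 replicates were close, while the controls, which rest on 14 and 7 overlaps, lay further apart. The means were 1550 ± 548.8 and 6962 ± 388 (SD, n = 2 each), which is 4.49 times as high with the tagged protein.

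In limma, PLK2 was the only one of the 4 to pass the threshold, with a log2 change of 2.205 (SE 0.30, adjusted p = 0.0133). That count of 1 in 4 stands against a background of 37.6% of the 4461 genes tested that were called higher, and 0.0672% called lower. Genes at 0 in both controls enter this background only through the tagged-CFAP20 libraries, so the filter fixed their direction. The median log2 change of all genes tested was 2.10, but it followed the pseudocount, at 4.32, 0.72 and 0.37 with pseudocounts of 1, 100 and the signal of 1 control read. The log2 change of PLK2 was 2.21, 2.14 and 2.02 under these settings. An exact binomial test on reads pooled by group, of which the controls held 15, gave a ratio of 5.29 with a 95% interval of 3.19 to 9.50 (adjusted p = 3.13e-14). This test leaves out the scatter between libraries, and it called 6.3% of genes higher. The limma call was lost without tagged-CFAP20 replicate 1 (adjusted p = 0.998) or replicate 2 (0.995), each of which leaves a single library in that group.

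As a share of all gene signal, which takes out any common factor per library, PLK2 held 0.153% and 0.179% in the CFAP20-KO libraries and 0.341% and 0.356% in the tagged-CFAP20 libraries. The shares did not overlap between groups, and the mean share was 2.10 times as high with the tagged protein. How often shares of all genes tested did not overlap was not counted, so whether this is usual is not known. The exact permutation test over the 6 assignments of libraries gave p = 0.33, the smallest it allows (two-sided). The exact binomial test on shares gave a ratio of 2.198 (95% interval 1.32 to 3.95), with p = 0.00110 before and 0.196 after adjustment over all genes. At an equal share, the CFAP20-KO libraries would have held 45.4 overlaps on PLK2, where 21 were seen. Only 0.0672% of genes were called higher as shares, and PLK2 was not among them.

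KLF6 had signal of 83.0 and 0 in the CFAP20-KO libraries and 706.9 and 752.4 in the tagged-CFAP20 libraries. Both libraries with the tagged protein were high, and the control rests on a single read overlap in replicate 1. KLF6 had no row in the table of CFAP20-KO replicate 2 and was taken as 0 there. The means were 41.5 ± 58.7 and 730 ± 32.1 (SD, n = 2 each). Its limma log2 change of 4.60 (SE 1.42) did not pass the threshold (adjusted p = 0.0972). With 1 read against 79, the pooled ratio was 8.27 with a 95% interval of 1.44 to 331 (exact binomial test, adjusted p = 0.0797). In limma KLF6 was called higher only without CFAP20-KO replicate 1 (log2 change 6.21) or 2 (2.99), or with a larger pseudocount or a shorter region. Without replicate 1 the only control value was 0, and in the shorter region both controls were at 0. In these settings KLF6 passed the filter only through the tagged-CFAP20 libraries and could only come out higher.

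EGR1 showed the same arrangement at a lower level, with 83.0 and 0 in the CFAP20-KO libraries and 270 and 265 in the tagged-CFAP20 libraries. The tagged-CFAP20 replicates were nearly alike and lay above both controls. The means were 41.5 ± 58.7 and 267 ± 3.67 (SD, n = 2 each), and the limma log2 change was 3.18 (SE 1.38, adjusted p = 0.189). The pooled ratio of 1 read against 29 was 3.04, with an interval of 0.503 to 124 (exact binomial test, adjusted p = 0.863), so a difference was not detectable at this depth. In limma EGR1 was called higher only without CFAP20-KO replicate 1 (log2 change 4.79) or 2 (1.58). Without replicate 1 the only control value was 0, so EGR1 could only come out higher there.

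MYC was the one gene of the 4 whose groups overlapped. Its signal was 249 and 1108 in the CFAP20-KO libraries and 976.9 and 794.2 in the tagged-CFAP20 libraries. The highest of the 4 values belonged to a control library, CFAP20-KO replicate 2, where it rests on 4 overlaps. The means were 678.3 ± 607.1 and 885.5 ± 129 (SD, n = 2 each), with a limma log2 change of 0.73 (SE 0.91, adjusted p = 0.584). The pooled ratio, 5 reads against 97, was 2.03 with an interval of 0.841 to 6.40 (exact binomial test, adjusted p = 0.517). Without CFAP20-KO replicate 1 the log2 change was -0.33, and without CFAP20-KO replicate 2 it was 1.78 and called, so a single control library set its direction.

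Both tagged-CFAP20 libraries lay above both controls in signal for PLK2, KLF6 and EGR1, 3 of the 4 genes. They did so for 69.4% of all genes tested. A gene at 0 in both controls is tested only if both tagged-CFAP20 libraries are above 0, so it is always among these. Only 1122 genes had overlaps in both controls, so this background is set in part by the filter and the depth. The share of gene signal gave a like picture for the 3 lower genes. KLF6 held 0.0109% and 0% without and 0.0333% and 0.0400% with the tagged protein, and EGR1 0.0109% and 0% against 0.0127% and 0.0141%. MYC held 0.0328% and 0.102% against 0.0460% and 0.0423%. For KLF6 and EGR1 both tagged-CFAP20 shares were above both controls, though for EGR1 the gap to CFAP20-KO replicate 1 was small, and for MYC the groups overlapped again. The 69.4% given above is for signal, and the like count over all genes was not made for shares. The exact permutation p was 0.33 for KLF6 and EGR1 and 1.0 for MYC. The exact binomial ratios of shares had 95% intervals of 0.349 to 2.66 for MYC, 0.599 to 137 for KLF6 and 0.209 to 51.5 for EGR1, all of which span equality.

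Per kb of gene, the order in the tagged-CFAP20 libraries was PLK2, MYC, KLF6, EGR1. PLK2 stood at 1088 ± 60.6 signal per kb, MYC at 164 ± 23.9, KLF6 at 77.6 ± 3.42 and EGR1 at 66.8 ± 0.917 (SD, n = 2). By exact Poisson intervals on the pooled reads, PLK2 ranged from 1012 to 1168 and MYC from 133 to 200.05. The intervals of KLF6, from 61.5 to 96.7, and EGR1, from 44.8 to 96.0, overlapped, so these neighbours in the order were not separated at this depth, while PLK2 and MYC were each separated from the next. In CFAP20-KO the order was PLK2 at 242 ± 85.8, MYC at 126 ± 112, EGR1 at 10.4 ± 14.7 and KLF6 at 4.41 ± 6.24. The intervals there were 136 to 399 for PLK2, 40.8 to 293 for MYC, 0.263 to 57.8 for EGR1 and 0.112 to 24.6 for KLF6. Each overlapped the next in the order. These control intervals are approximate, since they count all pooled reads alike although a read was worth more signal in replicate 2.

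Among the 3214 genes of 3 to 10 kb, PLK2 ranked number 2 in signal per kb with the tagged protein, MYC 25, KLF6 60 and EGR1 79. PLK2 and MYC also ranked high in the controls, at 3 and 15. KLF6 and EGR1 ranked 333 and 233 there, on 1 read overlap each. No library of input RNA was analysed here, so a more abundant RNA and a more often captured one cannot be told apart, nor can fewer cells and less RNA per cell.

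**Figure D1:**
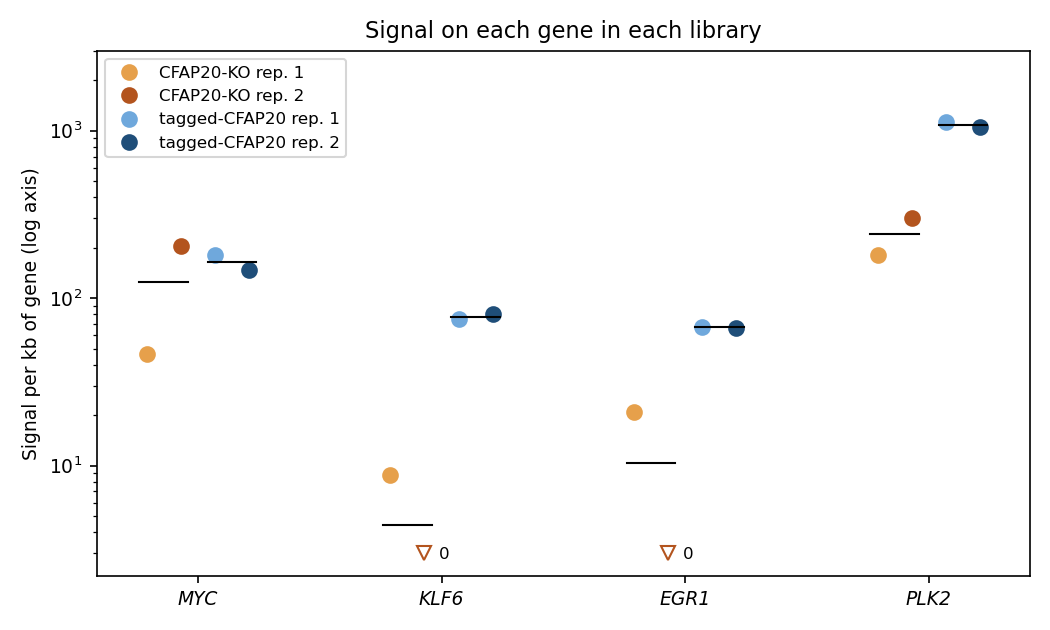
Signal per kb of gene (log axis) for each of the 4 genes in each of the 4 libraries; horizontal bars are group means and open triangles mark a value of 0. PLK2 is highest throughout, and MYC is the gene where a CFAP20-KO library lies above both tagged-CFAP20 libraries.

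The 4 genes together held a signal of 2311 ± 1039 without and 8845 ± 488 with the tagged protein (SD, n = 2 each). PLK2 made up 67.1% and 78.7% of these sums, so a sum over the 4 genes mostly describes PLK2.

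Coding bins took a larger share of tagged-CFAP20 overlaps than of bins in all 4 genes. In the pooled tagged-CFAP20 libraries, coding bins held 67.7% of MYC overlaps although they were 25.9% of its bins. The coding share was 45.9% of overlaps for 6.38% of bins in KLF6, and 75.0% for 35.0% in EGR1. In PLK2 the coding share was 35.2% for 25.0% of bins. Over 1478 coding genes of 3 to 10 kb it was 32.5% for 14.9% of bins. The share of overlaps was thus 7.19 times the share of bins in KLF6, 2.61 times in MYC, 2.14 times in EGR1 and 1.41 times in PLK2, against 2.18 times in the coding genes of 3 to 10 kb. KLF6 stood highest, EGR1 was near the short genes and PLK2 was lowest, which was not tested. The KLF6 value depends on the bin rule given below.

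By library, the coding share of MYC was 67.1 ± 5.58%, that of KLF6 45.9 ± 11.0%, that of EGR1 74.7 ± 8.86% and that of PLK2 35.3 ± 1.39% (SD, n = 2). The coding density per kb was 10.4 ± 5.68 times the intron density in MYC, 12.5 ± 5.78 times in KLF6, 3.67 ± 1.68 times in EGR1 and 1.49 ± 0.13 times in PLK2, against 2.91 ± 0.26 times in coding genes of 3 to 10 kb. The ratios of MYC and KLF6 were above that of the short genes, and the ratio of PLK2 below it, in both libraries, while EGR1 was above it in 1 library and below it in the other. A bin was given to the feature covering most of it. Of the 14 PLK2 exons, 11 are shorter than a bin, so PLK2 bins called intron often hold exon bases. In KLF6, coding bases of exons 1 and 3 lay in bins called 5′ UTR or intron. Its coding share and ratio therefore depend on this rule.

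Bins wholly inside an intron or an exon avoid this mixing for the GENCODE transcript used for each gene, but not for other transcripts. Some of the intron bins lie wholly on exons of other transcripts. Examples are those 1000 and 1800 bp from the start of MYC and 3800 and 4000 bp from that of KLF6. The 4 pure intron bins of PLK2 held 597.97 ± 131 signal per kb and its 5 pure exon bins 1265 ± 62.7 (SD, n = 2, tagged-CFAP20). All 4 of these intron bins had reads, with 7 to 33 overlaps over both libraries. In MYC the 13 pure intron bins held 33.6 ± 5.55 per kb against 352 ± 116 in 8 pure exon bins. In KLF6 the values were 27.8 ± 13.4 over 19 intron bins and 116 ± 13.7 over 20 exon bins, and in EGR1 17.4 ± 24.6 over 2 intron bins and 78.8 ± 1.12 over 14 exon bins. Exon density was above intron density in all 4 genes in both tagged-CFAP20 libraries. The pure intron bins of PLK2 carried more signal per kb than the pure exon bins of the other 3 genes. Of these PLK2 bins, those at 1000 and 4000 bp lie wholly on exons of other PLK2 transcripts, and that at 800 bp by 72.5%. The bin at 2400 bp, on no annotated exon, held 4 and 3 overlaps with tagged CFAP20. In each library this was below the mean pure exon bin of MYC, though above that of KLF6 and EGR1.

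All KLF6 bins called coding lay in exon 2, which holds most of its coding sequence, so its coding share describes exon 2 only. Coding exon 3 lay in the bins at 5000 and 5200 bp, which were called intron. With tagged CFAP20 the first of these held 2 and 1 overlaps and the next 1 and 0. The 3 bins of exon 2 held 21 and 29 overlaps with tagged CFAP20 and 0 in both controls, while the 18 bins of exon 4, nearly all 3′ UTR, held 12 and 9. In MYC, exon 2 held 22 and 18 overlaps in 4 bins and exon 3 held 42 and 23 in 5 bins. In EGR1, exon 2 held 15 and 16 overlaps, and exon 1 held 4 and 0. The MYC overlaps in CFAP20-KO replicate 2 lay on exons 2 and 3 (1 and 3 overlaps), and the 3 in replicate 1 lay in bins called intron.

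The 3′ UTRs, where decay elements lie, took a smaller share of reads than of bins in KLF6 and EGR1. They took 19.3% of KLF6 overlaps for 38.3% of bins and 7.5% of EGR1 overlaps for 35.0% of bins. In PLK2 the shares were 6.81% and 9.38%. In MYC they were 11.3% and 7.41% up to the gene end of the tables, but 13.9% and 28.6% when the bins up to the end of the GENCODE model were included, a setting added after the data were seen. Over coding genes of 3 to 10 kb, 3′ UTR bins took 14.1% of overlaps for 13.8% of bins. The difference was not tested.

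**Figure D2:**
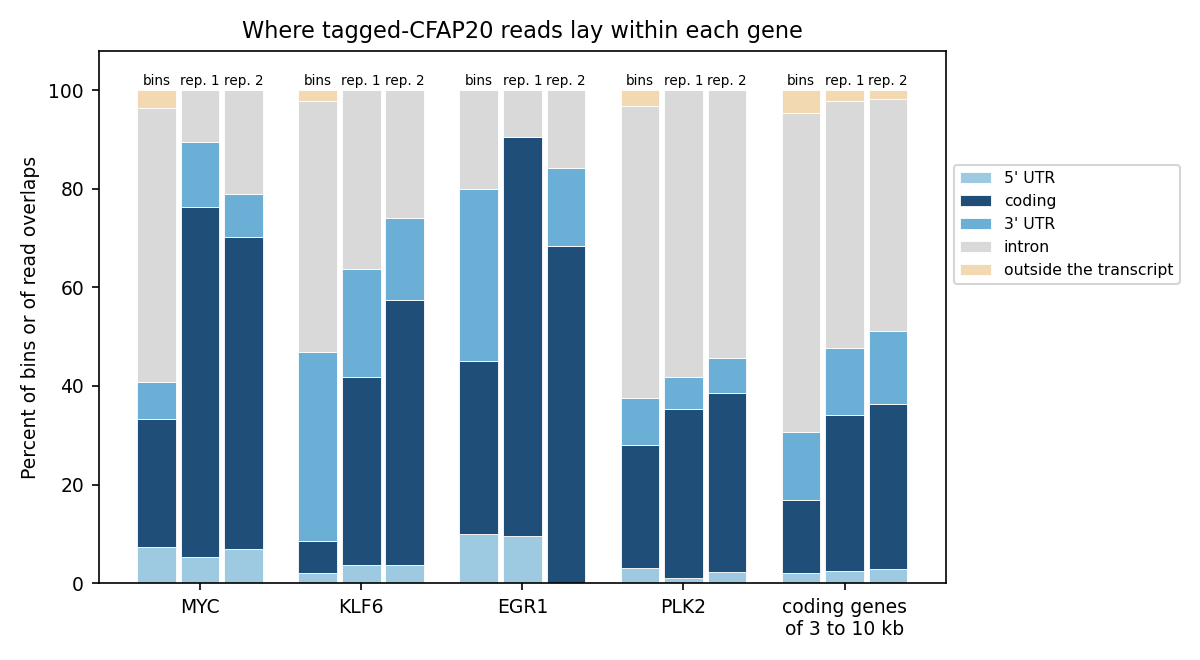
Share of the gene's bins (left bar) and of read overlaps in each tagged-CFAP20 replicate (middle and right bars) by gene feature, in percent, for the 4 genes and for 1478 coding genes of 3 to 10 kb. Each bin counts for the feature covering most of it. Coding sequence takes a larger share of reads than of bins in each gene when both replicates are pooled, by most in KLF6 and by least in PLK2.

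The pentamer ATTTA, the core of the AU-rich element, was counted in the transcribed strand of the GENCODE 3′ UTRs. There were 6 copies in MYC, 6 in KLF6, 1 in EGR1 and 2 in PLK2. The median among 3′ UTRs within 25% of the same length was 4, 7, 2 and 1, and 72.6% of all 5858 3′ UTRs held at least 1 copy. Both copies in PLK2 were part of the longer TATTTAT, which contains the pentamer, and 3.19% of 3′ UTRs of similar length held at least that many. MYC and KLF6 held 1 TATTTAT each, and 40.7% and 59.0% of 3′ UTRs of similar length held at least as many. EGR1 held 0. Windows of 30 bases that hold an ATTTA, in capitals, are given for the 3 genes because such elements are known from many short-lived messenger RNAs.
KLF6: gtgtATTTAcaaatataacacaacaATTTA
EGR1: tctatttttttaactgaaaatgtaaATTTA
PLK2: tATTTAttacagcccaaagagcagtATTTA

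A match is a description of the letters only, and no reading of decay follows from it.

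Along the gene, the 4 profiles differed. In the tagged-CFAP20 libraries, PLK2 was flat, with 33.5 ± 2.06%, 32.5 ± 0.55% and 34.0 ± 2.61% of overlaps in the first, middle and last of 3 equal stretches (SD, n = 2). KLF6 and EGR1 peaked in the middle stretch, with 63.4 ± 9.90% and 69.9 ± 2.13%. MYC had little in its first stretch, 11.4 ± 1.24%, and most in the middle and last, at 40.8 ± 9.30% and 47.8 ± 10.54%. Genes of 3 to 10 kb pooled were flat, with 35.0% and 33.3% of overlaps in the first stretch in the 2 tagged-CFAP20 libraries.

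None of the 4 genes was densest at its start. The first 1 kb held 10.53% of MYC overlaps in both tagged-CFAP20 libraries, 11.0 ± 2.45% of KLF6 overlaps, 17.2 ± 9.39% of EGR1 overlaps and 10.9 ± 2.31% of PLK2 overlaps (SD, n = 2). These bins made up 18.5%, 10.6%, 25.0% and 15.6% of the genes. The start was thus below the gene's mean in MYC and PLK2 in both libraries, and near it in KLF6. In EGR1 it held 23.8% in replicate 1, close to its share of bins, and 10.53% in replicate 2. The first bin of MYC, KLF6 and PLK2 lies wholly or mostly outside the GENCODE transcript used and held 0 overlaps. It counts in the first 1 kb and lowers the density there. PLK2 held 9.24% and 12.5%, and its start without this bin was not tested. In CFAP20-KO the first 1 kb held 33.3% and 0% of MYC overlaps and 7.14% and 28.6% of PLK2 overlaps. The groups overlapped for both genes (exact permutation p = 1.0), and each control value rests on 14 or fewer overlaps. For KLF6 and EGR1 no such test was possible, since CFAP20-KO replicate 2 had no signal there.

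**Figure D3:**
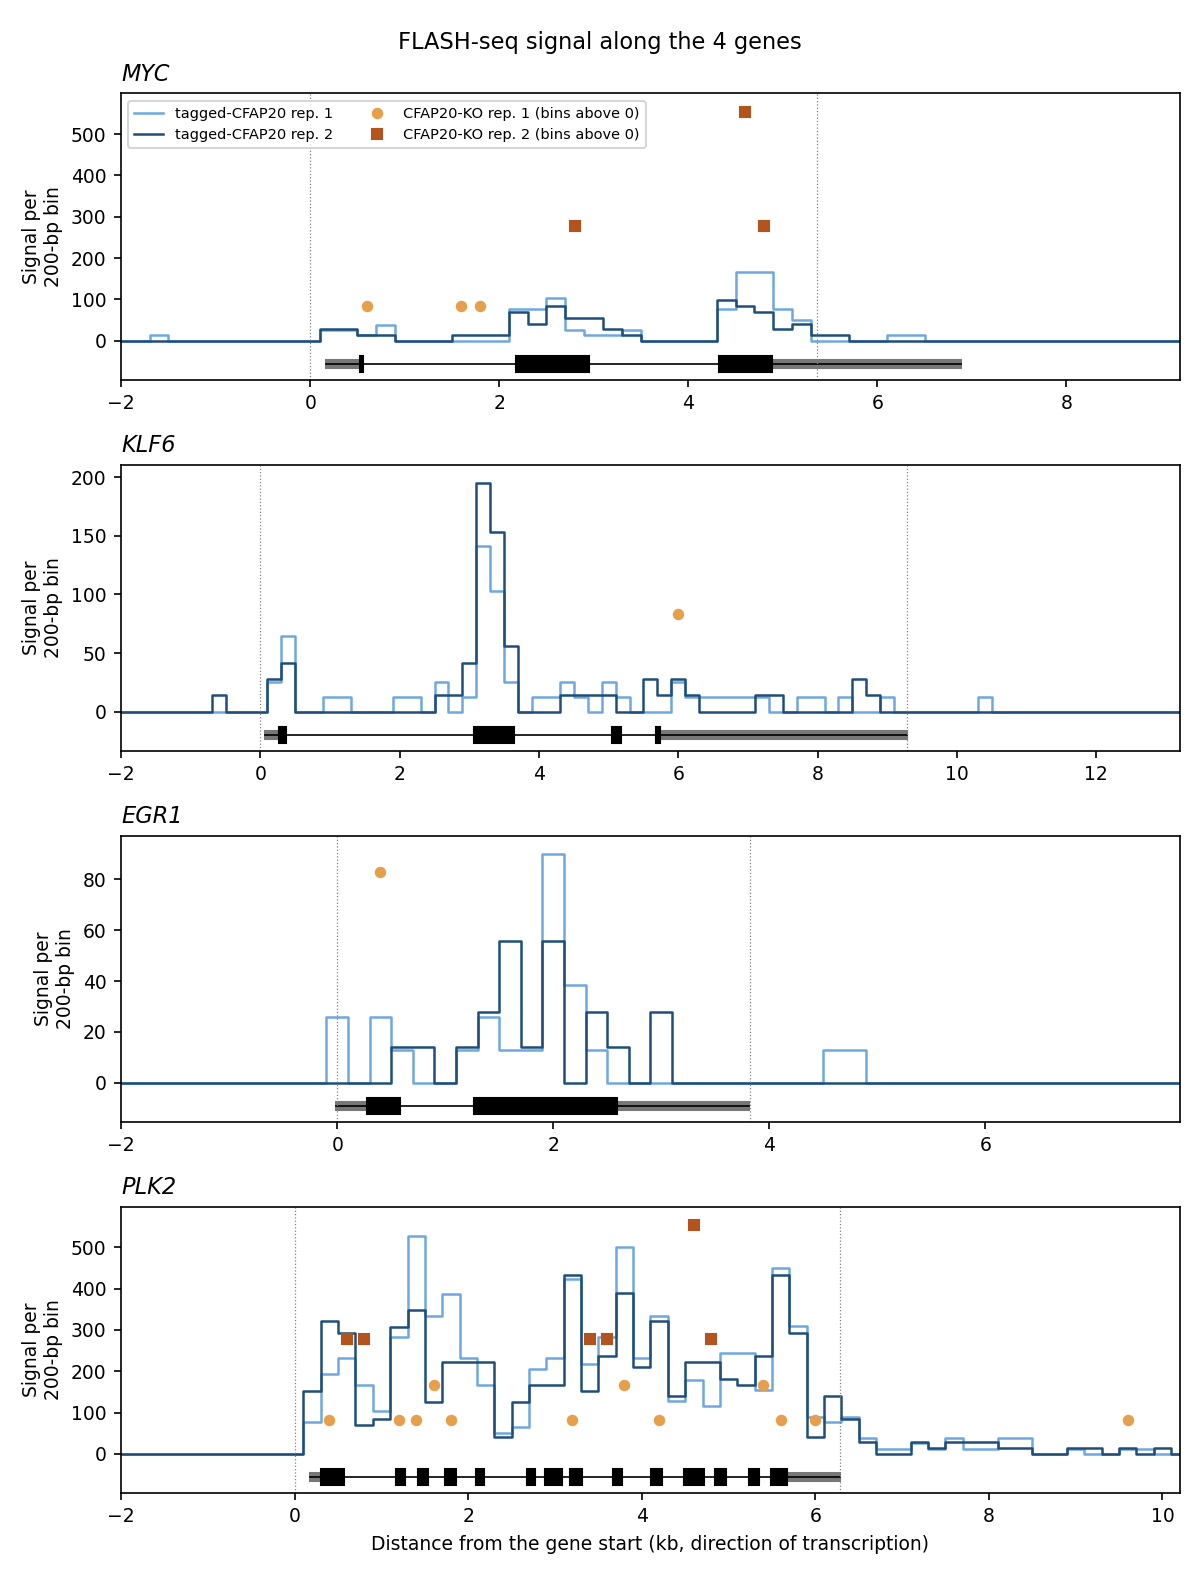
Signal per 200-bp bin against the distance from the gene start (kb), with lines for the tagged-CFAP20 libraries and points for CFAP20-KO bins above 0; below each profile, boxes show exons with coding parts tall and black, and dotted lines mark the gene start and end used. The highest bins of MYC, KLF6 and EGR1 lie over coding exons, while PLK2 is covered from its start to past its end.

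The share of signal on bins at least 50% covered by any annotated exon could be compared between groups for MYC and PLK2, on few control reads. It was 66.7% and 100% for MYC in CFAP20-KO against 94.7% and 96.5% with the tagged protein. For PLK2 it was 85.7% and 57.1% against 81.0% and 76.5%. For both genes the groups overlapped (exact permutation p = 1.0, where 0.33 is the smallest possible), and leaving out 1 library moved the difference between groups from -4.39 to 28.9 percentage points in MYC and from -6.99 to 21.6 in PLK2. With the tagged protein the share was 78.9 ± 3.62% for KLF6 and 87.3 ± 4.43% for EGR1 (SD, n = 2), and it was 72.6% and 74.6% for coding genes of 3 to 10 kb.

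Past the gene end used, PLK2 had more reads than the other 3 genes. The first 2 kb beyond its end held 23 and 18 overlaps with tagged CFAP20 and 0 in both controls, or 137 ± 15.85 signal per kb (SD, n = 2). Relative to the overlaps on the gene this was 4.09% and 3.75% in the tagged-CFAP20 libraries. Over the 3214 genes of 3 to 10 kb pooled, it was 12.9% and 13.0%, and each of the 4 genes was below this. The next 2 kb held 6 and 5 overlaps, at 36.7 ± 2.64 per kb, with 1 in CFAP20-KO replicate 1. Past the end of MYC in the tables there were 2 and 2 overlaps in 2 kb, all 4 of them on the 3′ UTR of the GENCODE model, with the tagged protein. Past EGR1 there were 2 and 0, and past KLF6 1 and 0. These genes have much less signal than PLK2, and whether the share past the end differed was not tested. Upstream, the 2 kb before PLK2 and EGR1 held 0 overlaps in each library, and those before MYC and KLF6 held 1 in total each. From 2 to 10 kb upstream all 4 genes were at 0 in each library.

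The wider immediate early class was read from a list of 50 genes, of which 23 were in the tables and 21 were tested. In limma 8 of the 21 were called higher and 0 lower, a share near the background of 37.6%, and leaving out 1 library moved this count from 0 (without either tagged-CFAP20 library) up to 15 and 18 (without CFAP20-KO replicate 1 or 2). The median log2 change was 2.65, against 2.10 for all genes tested. PLK2 was the only called gene with signal in the controls. The other 7 called genes were DUSP5, NR4A2, IER5, FOSB, ATF3, KLF4 and FOS, with no read in either control. Their tagged-CFAP20 signal was below the 263 that 3 reads pooled over both controls would give. They passed the filter only through the tagged-CFAP20 libraries, so they could not have been called lower. FOS, a partner in the AP-1 transcription factor, was called from 1 read overlap in each tagged-CFAP20 library.

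The exact binomial test on the deposited scale called 4 genes of the list, PLK2, CCN1, ZFP36L1 and MCL1, and on shares it called 0 (limma 8), where the same tests called 6.3% and 0.0672% of all genes tested higher. CCN1, a secreted matrix protein, had 22 and 11 overlaps without and 409 and 316 with the tagged protein. Its mean signal was 2436 ± 862.4 against 4830 ± 603.9 (SD, n = 2 each), a ratio of 1.98 (limma adjusted p = 0.0920). ZFP36L1, a protein that binds AU-rich elements and promotes decay, had 10 and 1 overlaps against 260 and 202, and its mean signal was 553.4 ± 391 against 3078 ± 373 (limma adjusted p = 0.0569). MCL1, an inhibitor of apoptosis with a short-lived messenger RNA, had 0 and 1 overlaps against 84 and 64. Its pooled ratio was 11.3 with a 95% interval of 1.99 to 451 (exact binomial test, adjusted p = 0.0110). PLK2 had more tagged-CFAP20 signal than any other gene of the list, and MYC and KLF6 came after these 3.

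The list as a whole held 0.678% and 0.768% of gene signal in the CFAP20-KO libraries and 1.04% in each tagged-CFAP20 library. Its summed signal was 3.09 times as high with the tagged protein, and 2.70 times without the 4 genes, while all gene signal was 2.17 times as high.

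**Figure D4:**
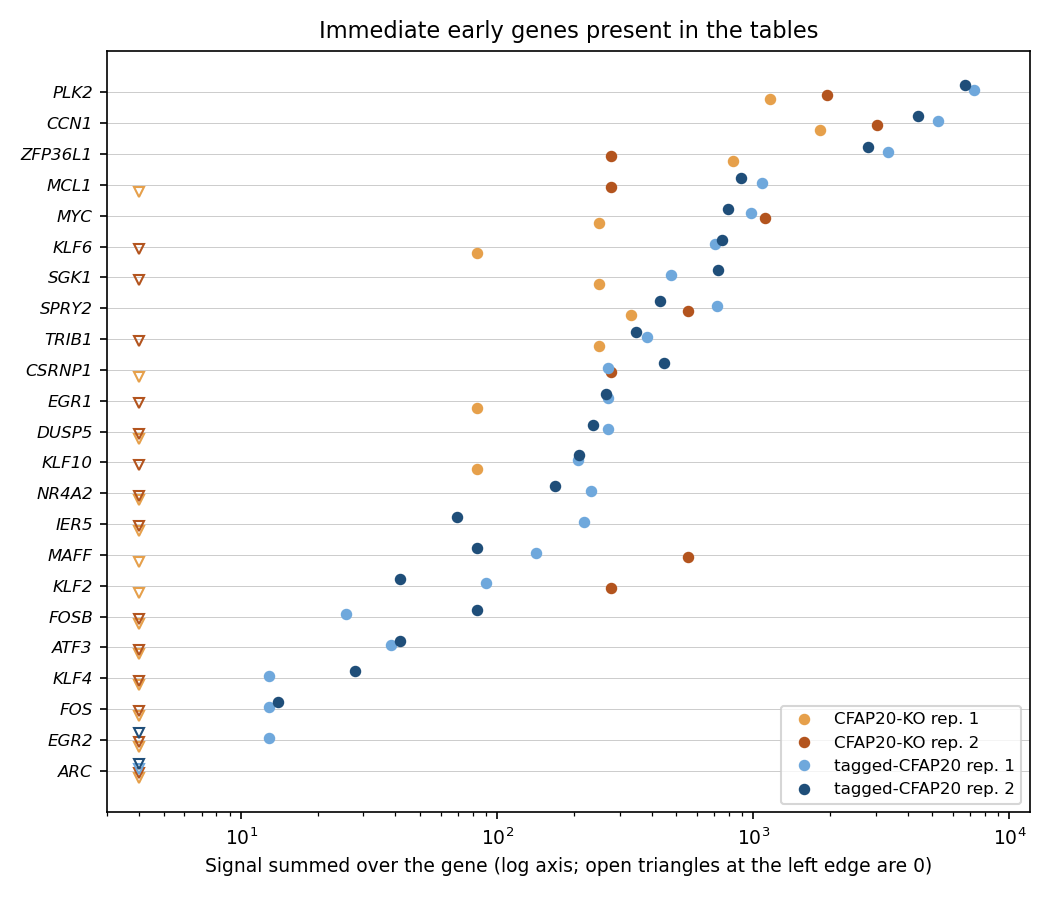
Signal summed over each of the 23 immediate early genes in the tables (log axis), with 1 point per library; open triangles at the left edge are values of 0. PLK2 and CCN1 are well above 0 in all 4 libraries, and most genes in the lower part rest on few reads or none in CFAP20-KO.

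Relatives of the 4 genes were few in the tables. Of 13 genes of the MYC network, 3 were present and tested, and MLXIP, a partner-dependent glucose-sensing factor, was the 1 called higher in limma (0 lower), beside 37.6% of all genes tested. MLXIP had 2 and 1 overlaps without and 107 and 82 with the tagged protein (limma log2 change 2.49, adjusted p = 0.0451), and its pooled ratio had a 95% interval of 1.95 to 59.8 around 7.17. MXD1, an antagonist of MYC, had a mean signal of 41.5 ± 58.7 against 73.4 ± 5.27 (SD, n = 2 each). The median log2 change of the 3 was 1.45, against 2.10 for all genes tested.

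Of 29 genes of the KLF, SP and EGR families and their partners, 14 were in the tables and 10 were tested. In limma 2 of the 10 were called higher, KLF5 and KLF4, and 0 lower, beside 37.6% higher among all genes tested. Both were at 0 in the controls, with tagged-CFAP20 signal below the floor of 263. The median log2 change was 2.66, against 2.10 for all genes tested. SP3, with most signal, had a mean of 1093 ± 20.2 against 1353 ± 140 (SD, n = 2 each; limma adjusted p = 0.409). KLF3 had 83.0 ± 117 against 585.04 ± 118, and KLF9 166 ± 235 against 295 ± 16.8. KLF6 was thus the member of this family with the second-highest tagged-CFAP20 signal.

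Of 18 genes of the serum response and MAP kinase pathway, which relays growth signals to immediate early promoters, 6 were in the tables and tested. In limma 2 of the 6 were called higher, MAPK3 and RPS6KA5, and 0 lower, a share near the background of 37.6%. Both were at 0 in the controls, with tagged-CFAP20 signal below the floor of 263. The median log2 change was 3.53, against 2.10 for all genes tested. RPS6KA3, a kinase downstream of ERK, had 318 ± 333 against 1330 ± 9.25. MAP2K2, which activates ERK, had 277 ± 392 against 1178 ± 48.3 (SD, n = 2 each). The exact binomial test on the deposited scale called RPS6KA3 and MAP2K2, and 6.3% of all genes tested. Of 5 polo-like kinases only PLK2 and PLK5 were in the tables, and PLK5 held 2 and 0 overlaps with the tagged protein and 0 without it, so 1 gene was tested and called higher, with its log2 change of 2.205 as the median.

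The genes most like each of the 4 over the 4 libraries were found by Euclidean distance of log2(signal + 10). They were TBCA (distance 0.038), ARHGEF10L (0.35) and SSR3 (0.40) for MYC, and SPRED2 (0.19), ELF1 (0.20) and DCP2 (0.20) for KLF6. For EGR1 they were STEAP2 (0.098), COQ4 (0.15) and NUAK2 (0.15). PLK2 had no gene as near, the closest being COL12A1 (0.70), CPA4 (0.74) and CCDC14 (0.74). All 12 genes are longer than the gene they resemble, from 11.5 to 158 kb, and for KLF6 and EGR1 the control values are the same single read overlap and 0.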

How the data were processed

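Crosslinked, pulled-down RNA was sequenced in 4 libraries, 2 of CFAP20-KO and 2 of tagged-CFAP20 cells, grouped by their titles. The authors deposited 1 table of coverage signal per library, in 200-bp bins around each gene start, per the file headers. Columns of unit other, also deposited, give the gene's position, strand and length. The submitters' processing notes list UMI-tools 1.0.0, Bowtie2 2.3.5, HOMER 4.8.2, R 4.0.5 and hg38. For mapping settings, duplicate removal and normalization, the sources used here give nothing. In each table all values were whole multiples of 1 step (tolerance 0.01), which was 83.0 and 276.88 in CFAP20-KO and 12.9 and 13.9 in tagged-CFAP20, and the step was read as 1 read overlapping 1 bin. A read covered 1.38 bins on average, and exact tests used overlaps divided by this.

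Genes without a row in a table were set to 0. Of such genes, 462 could be read through a neighbour's window, and 462 of these were at 0; KLF6 could not be checked so. A further 1 column matched no sample and was not used. Symbols were matched for 9478 of 9667 genes through GENCODE 44.

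Signal was summed from gene start to end. limma 3.58.1 (R 4.3.3, trend) was run on log2(signal + 10) of the 4461 genes that 2 or more libraries placed above 0, with adjusted p-values by Benjamini-Hochberg called at 0.05. A gene at 0 in both controls passes this filter only through both tagged-CFAP20 libraries, so it can only come out higher. The pseudocount is below 1 control read, so log2 changes of genes at 0 in CFAP20-KO follow it. limma treats the libraries as equally precise, although the controls held far fewer reads, so exact binomial tests on pooled reads stand beside it. Those tests take reads as independent and leave out the scatter between libraries. Bins past 10 kb upstream or 100 kb downstream were not used. The scripts were tested on simulated data.

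The 4 genes and the lists were chosen with earlier results of these data known. Named genes are the 4, the 3 further members of each list with most signal, and the 3 nearest patterns of each, except 1 list member that is not reported here; other list members are named where a count of calls turned on them, after their values were seen. Alternatives changed the pseudocount, the filter, the scaling, the region, the test and the libraries.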

Additional observations from a re-analysis of the deposited data

How the results depend on the processing

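Of 217 recomputed values, 91 that answer a comparison and 47 of single genes kept their direction and side of the threshold. The deviations of same-numbered libraries had a correlation of 0.0052 over 4461 genes. With so few control reads, mostly counting error enters this value, so it cannot show whether the replicate numbers pair the libraries. With the replicate block 1874 genes were called higher, PLK2 kept its call (adjusted p = 0.01005) and the MYC network list fell from 1 call to 0.

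PLK2 was called in 12 of 17 settings, with log2 changes from 1.0804 to 2.57. Its adjusted p was 0.215 without the filter, 0.159 after quantile normalization, 0.196 as shares by the exact test, and 0.998 and 0.995 without tagged-CFAP20 replicate 1 or 2. KLF6 was called in 5 of 17 settings, EGR1 in 2 and MYC in 1. Without CFAP20-KO replicate 1 the only control value of KLF6 and EGR1 was 0, so those calls could only be higher. The same held for KLF6 in the first 3 kb, where both controls were at 0. The MYC log2 change was -0.38 at equal window totals, -0.093 after quantile normalization, -0.24 as shares, and from -0.33 to 1.78 when each library was left out.

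The count of genes called higher, 1678, was 1045 with a pseudocount of 1 control read, 281 by the exact test on the deposited scale, 3 by that test on shares, and 0 without the filter or after quantile normalization. Leaving out each library gave 0 (without either tagged-CFAP20 library) to 3256 (without CFAP20-KO replicate 1) and 3049 without CFAP20-KO replicate 2. There the lone library of a group is assumed to vary like the other group. Every list went to 0 calls without the filter, after quantile normalization and as shares. The immediate early list had 5 calls without trend, 4 by the exact test on the deposited scale, and 0 to 18 with a library left out. The KLF and EGR list had 1 at equal window totals or without trend, 0 by the exact test on the deposited scale, and 0 to 8. The MYC network list had 0 at equal window totals and 0 to 2, the MAP kinase list 1 with a pseudocount of 100, 0 with that of 1 control read, and 0 to 6, and the polo-like list 0 to 1.

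Differences in percentage points, tagged minus control, followed 1 control library when each library was left out: the MYC share of gene signal ran from -0.0582 to 0.0113, its share in the first 1 kb from -22.8 to 10.53 and its exon share from -4.39 to 28.9. For PLK2 the share in the first 1 kb ran from -17.7 to 3.73 and the exon share from -6.99 to 21.6, and the latter was -0.668 with bins exonic at any overlap. With tagged CFAP20 alone, KLF6 held 22.0% in its first stretch of 3 and 93.6% on bins touching an exon, and EGR1 held 50.1% in its first 2 kb and 97.4% on bins touching an exon. The 3′ UTR share of MYC overlaps minus its share of bins was 3.87 points, and -14.7 up to the end of the GENCODE model, a setting added after the data were seen. The limit throughout is the depth of the controls, with 1 read overlap on KLF6 and on EGR1 in all.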
